A study of Mus musculus with 48 samples.

Results

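Etv2-high and Etv2-undetected cells of a population of single mouse cells were set against each other by the level of Etv2, the ETS-domain transcription factor that opens the blood and endothelial programme in the mouse embryo. Rows of the same symbol were summed, and the sides were then selected on the Etv2 value alone. The Etv2-high side was made of the cells with 10 FPKM or more (fragments scaled by transcript length and sequencing depth), 19 of the 48 cells sequenced. The Etv2-undetected side was made of the cells below 1 FPKM, 22 of the 48. The 7 cells between were left out.

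All 48 cells came from mouse embryonic stem cells (strain 129P2/OlaHsd) carrying an inducible Mesp1, grown as embryoid bodies for 4 days. Doxycycline at 500 ng/ml was present between days 2.25 and 3.25 in every cell of both sides, so neither side is an uninduced control. Live cells that excluded propidium iodide were sorted at day 4 and captured one by one on a Fluidigm C1 device. The labels give 1 group and no separate cultures, so the cells stand as 1 sample: differences between the sides are described by size, spread and intervals on shares, and none carries a p-value.

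Etv2 is expressed briefly in mesoderm and binds DNA at sites with a GGAA core. Mouse embryos without it lack blood and vessels, and Tal1, Lmo2, Fli1 and the VEGF receptor gene Kdr are among its known targets. BMP, WNT and NOTCH signals act upstream of it, and Mesp1 has been reported as one of the factors that activate it.

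The gene lies at chr7:30633616-30635852 (GRCm38, minus strand). Its level within the Etv2-high side went as low as 12.1 FPKM, with a median of 37.6 and a highest value of 907 FPKM. The 5 cells above 100 FPKM were C19 at 907, C42 at 548, C51 at 246, C01 at 207 and C36 at 169 FPKM. On the Etv2-undetected side 21 cells listed Etv2 at 0 and 1 cell, C90, at 0.646 FPKM. The cells nearest the bounds were at 12.1 FPKM just inside and 7.40 FPKM just outside the upper bound, and at 0.646 FPKM just inside and 1.55 FPKM just outside the lower one. These values chose the sides and are no result. A 0 in such libraries is a value as listed, since a transcript can be lost in a single cell.

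**Figure D1:**
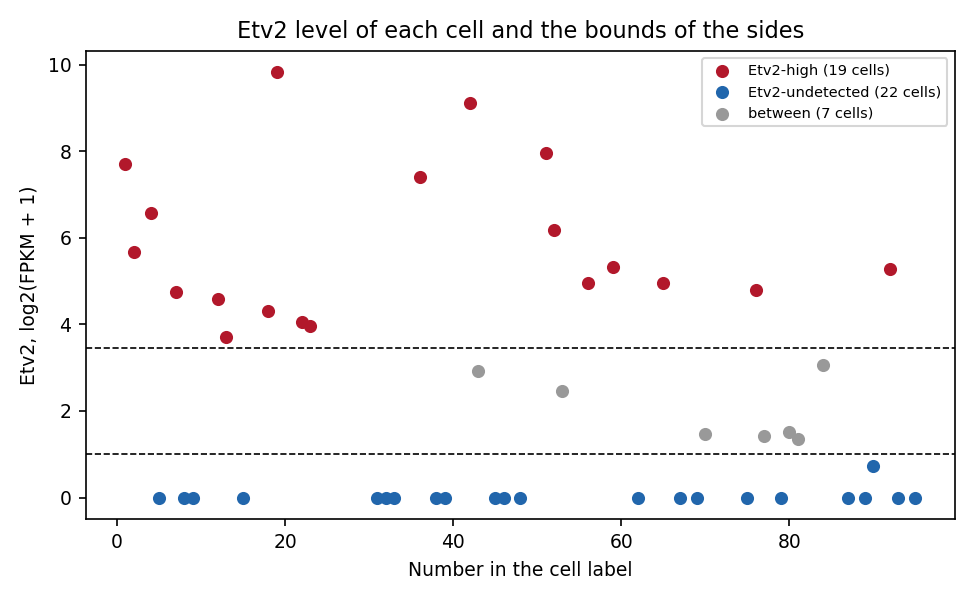
Etv2 level of each of the 48 cells on a log2(FPKM + 1) scale (vertical axis) against the number in the cell's label (horizontal axis), with dashed lines at the bounds of 10 and 1 FPKM. The 19 Etv2-high cells are spread over the numbers, 12 of them up to 48 and 7 above, and the 22 Etv2-undetected cells are 12 and 10.

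The sides had similar medians of depth and of the number of genes seen. The depth of a cell relative to the median cell, recovered from the steps that single fragments leave in low FPKM values, was 0.759 to 1.18 (median 1.002) on the Etv2-high side and 0.762 to 1.13 (median 0.983) on the Etv2-undetected side. Etv2-high cells had 5046 to 7003 genes at 1 FPKM or more (median 6402), and Etv2-undetected cells 4777 to 6989 (median 6269). Of the 7 cells under 5177 genes, 5 were Etv2-undetected and 1 was Etv2-high. The number in the label had a median of 23 on the Etv2-high side and 47 on the Etv2-undetected side. Across the 48 cells the number of detected genes fell as the label number rose (Spearman's rho = -0.82), so the differences of the genes past the size rule below, and of several others, are also given within cells numbered up to 48 and above 48. What the label number stands for is not given in the sources used here, and its part in the results was not tested. Short RNA rows were left out below. They took 2.29% to 90.1% of a cell's FPKM sum on the Etv2-high side (median 16.2%). On the Etv2-undetected side they took 2.52% to 96.6% (median 10.5%). Pearson's r between any 2 cells reached at most 0.82 (median 0.757), which gives no sign of a repeated library.

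Some transcription factors of the blood and endothelial programme, Lmo2, Fli1 and Elk3 above all, were seen in more Etv2-high than Etv2-undetected cells, and others did not separate the sides. Lmo2, the LIM-domain partner of Tal1 (chr2:103957986-103981878, plus strand), reached 1 FPKM in 9 of 19 Etv2-high cells (47.4%, exact Clopper-Pearson 95% interval 24.4% to 71.1%) and in 1 of 22 Etv2-undetected cells (4.55%, 0.115% to 22.8%). Its highest value was 99.3 FPKM on the Etv2-high side and 1.90 FPKM on the Etv2-undetected side, with a median of 0 on each. The 9 positive Etv2-high cells spread from 4.37 to 99.3 FPKM. Mean log2(FPKM + 1) of Lmo2 stood 1.81 higher in the Etv2-high cells, by 2.12 among cells numbered up to 48 and by 1.36 above 48.

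Fli1, another ETS factor and a known Etv2 target, reached 1 FPKM in 7 of 19 Etv2-high cells (16.3% to 61.6%) and 1 of 22 Etv2-undetected cells (0.115% to 22.8%), with a mean 0.90 higher (1.17 among cells numbered up to 48 and 0.55 above). Elk3, an ETS-domain repressor active in vessel formation, did so in 8 of 19 Etv2-high and 2 of 22 Etv2-undetected cells, with a mean 1.24 higher (1.30 and 1.17 in the same parts). An exon of Elk3 overlaps Cdk17 on the other strand, and the table does not separate strands. Tal1, the basic helix-loop-helix factor that starts the blood programme, was seen in 5 of 19 Etv2-high and 3 of 22 Etv2-undetected cells (mean 0.71 higher). Gata2, a zinc finger factor of early blood and endothelium, was seen in 8 of 19 and 7 of 22 (0.91 higher). The intervals of the sides overlap in part for Fli1. They overlap widely for Tal1 (9.15% to 51.2% against 2.91% to 34.9%) and Gata2 (20.3% to 66.5% against 13.9% to 54.9%). The homeobox gene Hhex did not separate the sides, with 7 of 19 Etv2-high and 8 of 22 Etv2-undetected cells and a difference of -0.01. Mef2c lay 0.49 below on the Etv2-high side, Nfatc1 was seen in 2 of 19 and 5 of 22 cells (-0.31) and Ets2 in 5 of 19 and 7 of 22 (-0.13).

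Of 17 transcription factors listed for this programme, 11 were seen in enough cells to be described (at least 1 FPKM in at least 5 of the 48 cells). Lmo2 and Elk3 had means at least 1 higher in Etv2-high cells, none had a mean at least 1 lower, 7 differences were above 0 and 4 below, and the list's median difference was 0.60. That median was 0.20 with all 17 members counted, and 0.25 for the 6 members detected in at least 12 cells. Over all 10569 genes described, 359 (3.40%) lay at least 1 higher and 247 (2.34%) at least 1 lower, with a median difference of 0.03. Erg and Hoxa9 were listed at 0 in every cell of both sides.

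Endothelial receptor and surface genes were led by Kdr and Rhoj. Kdr, the VEGF receptor by which blood and endothelial progenitors are sorted (chr5:75932827-75978458, minus strand), had a median of 11.4 FPKM and a highest value of 37.9 FPKM in Etv2-high cells, against a median of 0 and a highest value of 14.5 FPKM in Etv2-undetected cells. It reached 1 FPKM in 13 of 19 Etv2-high cells (43.4% to 87.4%) and 6 of 22 Etv2-undetected cells (10.7% to 50.2%), intervals that overlap in part. Its mean stood 1.85 higher, by 1.43 among cells numbered up to 48 and 2.42 above 48. Rhoj, a small GTPase of endothelial cells (chr12:75308322-75401456, plus strand), was seen in 7 of 19 Etv2-high cells at up to 83.6 FPKM, and in 1 of 22 Etv2-undetected cells at 7.26 FPKM. These are the counts of Fli1, whose intervals overlap in part. The mean of Rhoj stood 1.56 higher (1.97 among cells numbered up to 48 and 0.93 above).

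The semaphorin and VEGF co-receptor gene Nrp1 (16 of 19 Etv2-high against 13 of 22 Etv2-undetected cells; 1.20 higher) and the calcitonin receptor partner Ramp2 (12 of 19 against 10 of 22; 1.13 higher) overlapped between the sides. An exon of Ramp2 overlaps Vps25 on the same strand. Egfl7, a secreted endothelial protein, was seen in 9 of 19 Etv2-high and 9 of 22 Etv2-undetected cells (0.44 higher), and the apelin receptor gene Aplnr in 15 of 19 and 15 of 22 (0.37 higher). In all, 4 of the 14 members described of 30 listed were at least 1 higher and none at least 1 lower, with a median difference of 0.39.

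Several markers of formed endothelium were listed at 0 or below 1 FPKM throughout. The junction gene Cdh5, as well as Icam2, Emcn, Cldn5 and Robo4, was listed at 0 in every cell of both sides, and Pecam1 did not exceed 0.10 FPKM in Etv2-high cells or 0.37 FPKM in Etv2-undetected cells. Of the 30 members, 8 stayed below 1 FPKM in all 48 cells. Tek, the angiopoietin receptor gene, reached 1 FPKM in 2 of 19 Etv2-high cells and in 0 of 22 Etv2-undetected cells. Plvap, a gene of endothelial diaphragms, did so in 2 of 19 Etv2-high cells at up to 19.6 FPKM and in 3 of 22 Etv2-undetected cells at up to 9.66 FPKM. Esam was seen in 1 Etv2-high cell at 11.7 FPKM and Eng in 2 at up to 4.19 FPKM, and neither reached 1 FPKM in Etv2-undetected cells.

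Blood genes were sparse. Of 16 listed, 8 stayed below 1 FPKM in all 48 cells and 3 could be described. Runx1, the regulator of definitive blood formation, was seen in 6 of 19 Etv2-high and 3 of 22 Etv2-undetected cells (0.35 higher), with differences of -0.27 among cells numbered up to 48 and 1.24 above 48. The erythropoietin receptor gene Epor was seen in 4 of 19 and 2 of 22 (0.71 higher). Kit, the stem cell factor receptor gene, lay 0.25 below on the Etv2-high side.

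**Figure D2:**
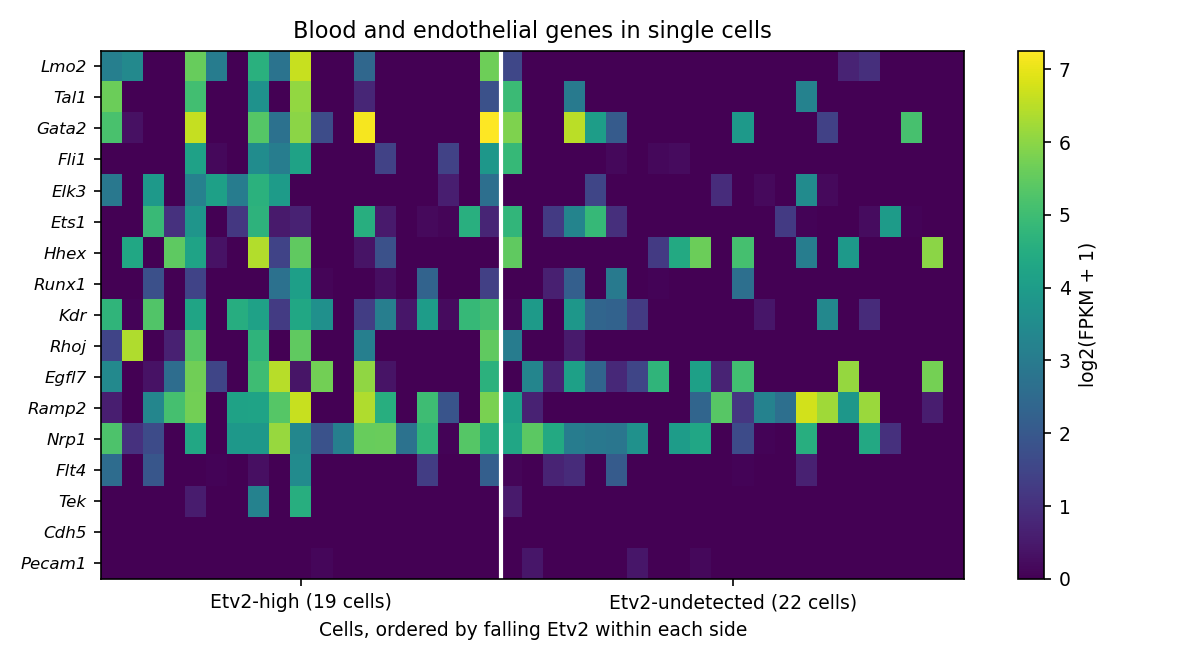
Level of 17 blood and endothelial genes (rows) in each cell (columns) as log2(FPKM + 1), with the 19 Etv2-high cells left of the white line and the 22 Etv2-undetected cells right of it, each ordered by falling Etv2. Lmo2, Rhoj and Fli1 lie mostly in the same Etv2-high cells and are nearly empty to the right apart from the first column, cell C90. Cdh5 is empty throughout.

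Some of these genes were nested in the same Etv2-high cells. All 5 Etv2-high cells with Tal1 also had Kdr and Lmo2, all 8 with Gata2 had Kdr, and all 7 with Rhoj had Lmo2. Kdr and Lmo2 were seen together in 7 of 19 Etv2-high cells, while 6 had Kdr without Lmo2 and 2 Lmo2 without Kdr. The 1 Etv2-undetected cell with Lmo2 lacked Kdr at 1 FPKM. Kdr was also seen without Tal1 in 8 Etv2-high cells and without Egfl7 in 6. At least 3 of Kdr, Tal1, Lmo2, Egfl7 and Gata2 were seen in 8 of 19 Etv2-high cells (42.1%, 20.3% to 66.5%) and in 3 of 22 Etv2-undetected cells (13.6%, 2.91% to 34.9%). The 8 cells were C02, C13, C19, C36, C59, C65, C76 and C92, of which 4 were numbered up to 48 and 4 above. Every one of the 5 genes was seen in C02, C13, C19 and C36. The other 11 Etv2-high cells carried Etv2 with at most 2 of the 5.

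Etv2-high cells with and without these genes spanned overlapping Etv2 levels. The 8 cells with 3 or more of the 5 genes had 12.1 to 907 FPKM of Etv2 (median 38.5), and the 11 others 14.7 to 548 FPKM (median 29.8). C13, with the lowest Etv2 of the side, had 33.1 FPKM of Kdr, 49.0 of Lmo2 and 152 of Gata2. C01, with 207 FPKM of Etv2, had Kdr, Lmo2, Tal1, Gata2 and Fli1 all at 0 but 4.98 FPKM of Egfl7 and 42.8 of Hhex. The same cell had 362 FPKM of the streak gene T. C42, with 548 FPKM of Etv2, had 83.6 FPKM of Rhoj and 9.75 of Lmo2 but 0.06 of Kdr. Over the 19 cells Spearman's rho with Etv2 was -0.06 for Kdr, 0.26 for Lmo2, 0.29 for Rhoj, 0.16 for Tal1, -0.14 for Fli1 and 0.39 for Elk3. These are descriptions over cells of 1 device in which most values are 0.

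On the other side the exceptions were few. C90, the only Etv2-undetected cell with a nonzero Etv2 value, was also the only one with Lmo2, Fli1 or Rhoj at 1 FPKM or more. It had 1.90 FPKM of Lmo2, 27.9 of Fli1, 7.26 of Rhoj, 29.5 of Tal1 and 57.1 of Gata2, with 0.07 of Kdr. Short RNA rows took 96.6% of its FPKM sum, the highest share of the 48 cells, and 4864 genes were detected in it. Among the 21 cells that listed Etv2 at 0, none reached 1 FPKM of Lmo2, Fli1 or Rhoj, a count that allows a share of up to 14.3% by counting error. Kdr was seen in 6 of these 21 cells, Gata2 in 6, Tal1 in 2 and Elk3 in 2. C15 had 13.4 FPKM of Kdr, 89.7 of Gata2, 16.5 of Egfl7 and 6.97 of Tal1 with Etv2 and Lmo2 listed at 0.

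Promoters are shown for Etv2 and for genes of these lists chosen by size and by share. Their mean stood at least 1 higher, and their share of cells at least 30 percentage points higher, in Etv2-high cells. The windows show how common the ETS core is in this sequence. Windows run from 250 bases before to 50 bases after the gene start (RefSeq, GRCm38.p6), read along the gene's strand, with each GGAA core and its reverse complement TTCC in capitals. They are Etv2 at chr7:30635803-30636102 (minus strand), Kdr at chr5:75978406-75978705 (minus strand), Rhoj at chr12:75308063-75308362 (plus strand) and Elk3 at chr10:93311110-93311409 (minus strand). Lmo2 meets the same conditions and is named only.
Etv2: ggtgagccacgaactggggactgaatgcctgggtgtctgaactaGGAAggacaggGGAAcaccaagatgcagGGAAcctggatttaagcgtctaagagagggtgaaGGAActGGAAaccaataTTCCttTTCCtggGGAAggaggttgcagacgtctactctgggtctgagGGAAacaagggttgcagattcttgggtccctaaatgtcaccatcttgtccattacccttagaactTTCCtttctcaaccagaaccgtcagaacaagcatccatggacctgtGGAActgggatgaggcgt
Kdr: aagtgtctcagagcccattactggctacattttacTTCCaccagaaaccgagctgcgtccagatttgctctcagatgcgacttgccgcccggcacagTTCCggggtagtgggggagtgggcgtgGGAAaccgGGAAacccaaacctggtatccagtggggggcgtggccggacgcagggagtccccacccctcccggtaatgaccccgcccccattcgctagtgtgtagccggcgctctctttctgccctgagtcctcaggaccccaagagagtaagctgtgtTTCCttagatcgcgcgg
Rhoj: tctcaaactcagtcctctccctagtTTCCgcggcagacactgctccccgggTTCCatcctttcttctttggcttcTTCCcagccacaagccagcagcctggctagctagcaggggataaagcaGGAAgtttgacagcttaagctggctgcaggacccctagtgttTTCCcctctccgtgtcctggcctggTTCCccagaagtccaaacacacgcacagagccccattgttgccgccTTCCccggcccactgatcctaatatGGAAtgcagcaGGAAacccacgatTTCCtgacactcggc
Elk3: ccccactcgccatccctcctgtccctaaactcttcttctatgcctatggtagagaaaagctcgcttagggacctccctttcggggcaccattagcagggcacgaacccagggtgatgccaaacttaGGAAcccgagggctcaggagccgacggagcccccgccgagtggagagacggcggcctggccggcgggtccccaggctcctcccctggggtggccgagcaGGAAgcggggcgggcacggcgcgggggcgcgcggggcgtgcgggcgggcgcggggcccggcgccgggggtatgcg

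The core occurs 11 times in the Etv2 window, 5 times in Kdr, 10 times in Rhoj and 2 times in Elk3. The longer form CAGGAAG, searched on both strands like all motifs here, occurs once each in Rhoj and Elk3, and CCGGAAG in none of the 4. Both longer forms contain the core. A match describes letters in the window and is no binding site. Promoters with at least 1 GGAA were 95.8% of the 259 found for genes at least 1 higher in Etv2-high cells, 92.6% of the 189 for genes at least 1 lower, 95.5% of the 7608 for all genes described and 95.96% of all 27025. CCGGAAG was held by 16.2%, 20.1%, 19.8% and 9.08% of the same sets, and CAGGAAG by 10.8%, 11.1%, 11.5% and 13.1%.

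Among all genes described, few separated the sides strongly. A gene was counted as past the size rule when its mean log2(FPKM + 1) differed by at least 2 and its share of cells at 1 FPKM or more by at least 30 percentage points. Of 10569 genes, 8 (0.0757%) were past it and higher in Etv2-high cells, and 4 (0.0378%) were past it and lower. Etv2 itself was left out. None of the 12 was a member of a gene list.

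Pmp22, a membrane protein known from myelin, led them (chr11:63128982-63159547, plus strand). It was present in every Etv2-high cell, from 14.6 FPKM over a median of 78.7 to 487 FPKM. In Etv2-undetected cells it reached 1 FPKM in 12 of 22, with a median of 7.07 and a highest value of 147 FPKM. The difference of 3.30 was alike among cells numbered up to 48 (3.26) and above 48 (3.53). Klhl6, an adaptor of ubiquitin ligases known mainly from B lymphocytes (chr16:19946496-19983037, minus strand), was seen in 13 of 19 Etv2-high cells with a median of 27.95 and a highest value of 232 FPKM. In Etv2-undetected cells it was seen in 6 of 22, with a median of 0 and a highest value of 52.8 FPKM. Its difference was 2.81, with 2.46 and 3.14 in the same parts.

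Pmp22 and Klhl6 were not confined to the cells with the blood and endothelial genes. C23, with Kdr as the only one of the 5 genes, had 78.7 FPKM of Pmp22 and 61.5 of Klhl6. C56, with Kdr, Lmo2, Tal1 and Gata2 all at 0, had 200.2 FPKM of Klhl6 and 29.2 of Pmp22. C13, with all 5 genes, had 29.1 FPKM of Pmp22 and listed Klhl6 at 0.

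Myc, the growth regulator, had a median of 43.6 FPKM in Etv2-high cells and 0.53 FPKM in Etv2-undetected cells, and was seen in 17 of 19 and 10 of 22 (2.35 higher, by 1.49 among cells numbered up to 48 and 3.51 above). Tmem43, of the inner nuclear membrane, was seen in 16 of 19 and 6 of 22 (2.31 higher, by 2.73 and 1.75), with medians of 14.3 and 0.27 FPKM. The TNF receptor family gene Cd40 (13 of 19 Etv2-high against 7 of 22 Etv2-undetected cells; 2.13 higher, by 2.53 and 1.27) and Blcap (16 of 19 against 8 of 22; 2.11 higher, by 2.73 and 1.21) were nearer the bound. Each of the 8 genes had cells at 0 or near it on the Etv2-undetected side and cells as high as some Etv2-high ones, so no gene set the sides fully apart.

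The remaining 2 higher genes are less certain in what they measure. Msx1as, the antisense transcript of Msx1, was seen in 18 of 19 Etv2-high cells (median 34.3 FPKM) and 11 of 22 Etv2-undetected cells (median 1.16 FPKM). Its difference of 2.97 was 1.497 among cells numbered up to 48 and 5.16 above 48. Msx1 itself reached 1 FPKM in 1 cell, at 2.09 FPKM. Rpl30, a ribosomal protein gene with processed copies elsewhere in the genome, was seen in 13 of 19 Etv2-high cells and 5 of 22 Etv2-undetected cells (3.29 higher, by 4.31 and 1.83). It fell into cells above 100 FPKM and cells at 0 on each side, and its exons overlap Gm24523 and, on the other strand, D730044K07Rik.

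Lower in Etv2-high cells were Pla2g1b, a secreted phospholipase A2 (8 of 19 Etv2-high against 17 of 22 Etv2-undetected cells; -2.47), Zfp110, a zinc finger gene (1 of 19 against 16 of 22; -2.09), Add3, an adducin of the membrane skeleton (13 of 19 against 22 of 22; -2.01), and Mterfd3, of a family of mitochondrial transcription factors (2 of 19 against 13 of 22; -2.005). Zfp110 was above 1 FPKM in a single Etv2-high cell, C52, at 35.4 FPKM. Its difference was -3.19 among cells numbered up to 48 and -0.63 above 48. The differences in the same parts were -3.32 and -1.21 for Pla2g1b, -1.90 and -2.12 for Add3 and -2.65 and -1.11 for Mterfd3. Zfp110, Add3 and Mterfd3 lay close to the bound. Without any 1 of the cells C13, C45, C48, C75, C92 or C95, 2 genes were lower by the rule, of which Pla2g1b was one each time and, without C75, Apeh the other.

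**Figure D3:**
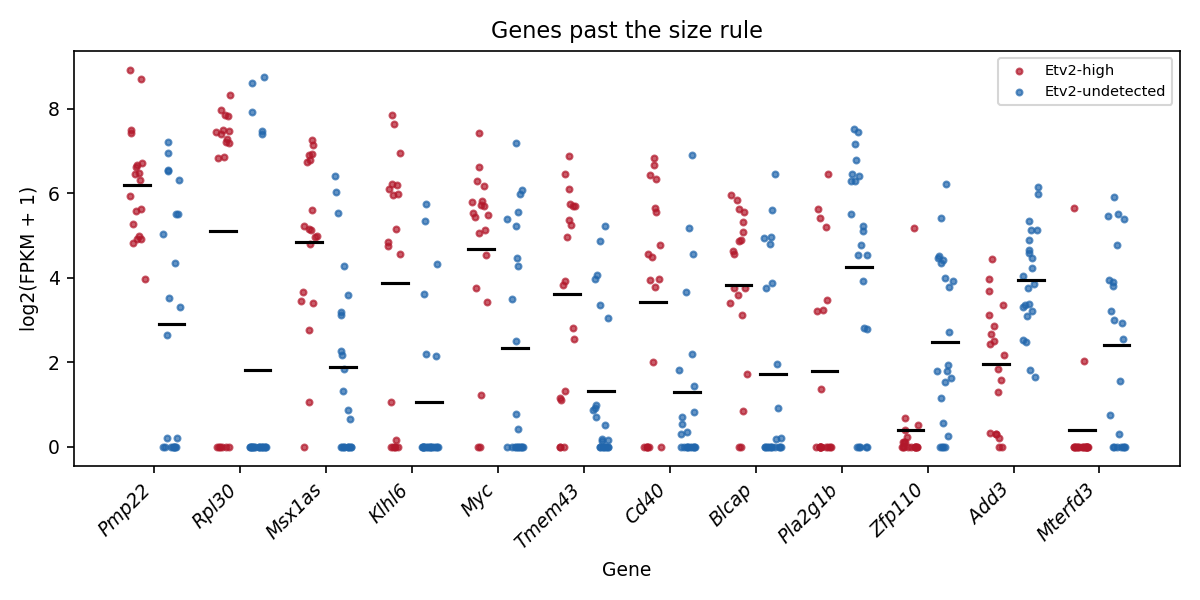
Level of the 12 genes past the size rule in each cell as log2(FPKM + 1), with Etv2-high cells left (red) and Etv2-undetected cells right (blue) for each gene, and black bars at the means. Pmp22 is above 0 in all 19 Etv2-high cells, and Rpl30 splits into cells near 7 and cells at 0 on both sides.

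The genes most like Etv2 over all 48 cells were ranked by Spearman's correlation, a description that includes the values which chose the sides. The 10 highest were Trp53inp2 (0.53), Pmp22 (0.52), Elac2 (0.51), Msx1as (0.51), Evx1 (0.51), Klhl6 (0.51), Tpm4 (0.49), F2r (0.49), Hmbox1 (0.49) and 9830001H06Rik (0.49). F2r, the thrombin receptor gene, had medians of 22.4 FPKM in Etv2-high and 2.90 FPKM in Etv2-undetected cells (1.92 higher). Elac2, which trims the ends of transfer RNAs, was seen in 12 of 19 and 3 of 22 (1.44 higher). Over the 19 Etv2-high cells alone, rho with Etv2 was 0.70 for Trp53inp2 and 0.56 for Tpm4, a tropomyosin, but 0.26 for Pmp22, 0.15 for Klhl6, 0.00 for Evx1 and -0.07 for Msx1as.

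Among genes reported to act upstream of Etv2, Bmp4, the BMP ligand, and Gata4, a zinc finger factor of heart and lateral plate, stood at least 1 higher. Bmp4 had a median of 12.8 FPKM in Etv2-high and 0.72 FPKM in Etv2-undetected cells (13 of 19 against 10 of 22; 1.42 higher, by 0.38 among cells numbered up to 48 and 3.21 above). Gata4 had medians of 14.02 and 3.38 FPKM (17 of 19 against 12 of 22; 1.46 higher). Mesp1, the induced gene, overlapped between the sides: it had a median of 8.03 and a highest value of 94.5 FPKM in Etv2-high cells, and 2.57 and 254 FPKM in Etv2-undetected cells, with 13 of 19 and 11 of 22 cells at 1 FPKM or more. Its difference was 0.79 over all cells, 1.70 among cells numbered up to 48 and -0.49 above 48. The table does not separate the inducible copy of Mesp1 from the endogenous gene. Nfatc3, a calcium-responsive factor, was seen in 4 of 19 Etv2-high and 13 of 22 Etv2-undetected cells (-0.70).

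Heart and lateral plate genes were among those with higher means. Tbx3, a T-box factor, was seen in 16 of 19 Etv2-high cells (median 8.08 FPKM) and 7 of 22 Etv2-undetected cells (median 0.06 FPKM), a difference of 1.996 just under the size rule's bound. Hand1, a basic helix-loop-helix factor of lateral and extraembryonic mesoderm, had medians of 25.5 and 0 FPKM (1.52 higher), and the growth factor gene Fgf10 medians of 18.4 and 3.49 FPKM (1.28 higher). With Gata4 and Bmp4, 5 of the 18 members described were at least 1 higher and none at least 1 lower, and the median difference was 0.43. Pdgfra, the receptor of cardiac and paraxial mesoderm, was seen in 12 of 19 and 13 of 22 cells (0.44 higher). Kdr and Pdgfra were seen together in 8 of 19 Etv2-high and 5 of 22 Etv2-undetected cells. Paraxial mesoderm genes had a median difference of -0.19, with none of 12 at least 1 apart.

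Primitive streak genes lay on both sides of 0. Evx1, a homeobox gene of the posterior streak, was seen in 10 of 19 Etv2-high cells and 1 of 22 Etv2-undetected cells (1.69 higher), and 9 of the 10 also had T at 1 FPKM or more. An exon of Evx1 overlaps Evx1os on the other strand. The homeobox gene Mixl1 (medians of 52.5 FPKM in Etv2-high and 17.4 FPKM in Etv2-undetected cells; 1.86 higher) and Snai1, a repressor of E-cadherin (34.6 and 0 FPKM; 1.63 higher), were also at least 1 higher. Cer1, a Nodal and BMP antagonist of anterior endoderm and mesoderm, was seen in 3 of 19 Etv2-high and 9 of 22 Etv2-undetected cells (-1.92), and Foxa2, a factor of anterior streak and endoderm, in 3 of 19 and 9 of 22 (-1.12). The list's median difference over 15 members was 0.17, and T itself stood at 2.76 among cells numbered up to 48 and -1.81 above 48.

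Several pluripotency and epithelial genes had lower means in the Etv2-high cells. Nanog had a median of 3.48 FPKM in Etv2-high and 16.9 FPKM in Etv2-undetected cells, and was seen in 17 of 19 and 22 of 22 (-1.62, with -2.16 and -1.06 among cells numbered up to 48 and above). Pou5f1 was seen in 9 of 19 and 16 of 22, with medians of 0.43 and 18.6 FPKM (-1.72, with -1.36 and -2.50). Dppa5a (-2.46), Zfp42 (-1.38) and Utf1 (-1.38), further genes of pluripotent cells, were also at least 1 lower. They were so only among cells numbered up to 48, at -4.63, -2.46 and -2.88, against 0.18, -0.09 and 0.39 above 48. In all, 5 of the 16 members described were at least 1 lower and none at least 1 higher, with 14 differences below 0 and 2 above. Other abundant members were not clearly lower. With 1 cell left out at a time, Tdgf1 lay at 0.20 to 0.77, Dnmt3b at -0.003 to 0.40 and Lin28a at -0.31 to -0.18. The list's median difference was -0.65 over all cells, -1.38 among cells numbered up to 48 and 0.05 above 48. The list's mean log2(FPKM + 1) was highest in C05, C09, C32 and C38 (5.63, 4.81, 5.05 and 5.69). All were Etv2-undetected and numbered up to 48, with Dppa5a at 3538, 1128, 1489 and 2591 FPKM. The highest Etv2-high cell, C65, was at 3.60 with 1418 FPKM of Dppa5a. The medians of this mean over cells were close, at 1.76 in Etv2-high and 1.93 in Etv2-undetected cells.

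Epcam, an epithelial adhesion gene, was seen in 5 of 19 Etv2-high and 12 of 22 Etv2-undetected cells (-1.39, with -1.54 and -1.47 in the same parts), and the tight junction gene Cldn6 in 4 of 19 and 9 of 22 (-1.55). The list's median difference was -0.68, with these 2 of 8 members at least 1 lower and 2 above 0. The keratin gene Krt8 was one of the members above 0 (14 of 19 against 14 of 22; 0.46), with 2.13 among cells numbered up to 48 and -1.84 above. Krt18, another keratin gene, lay at -1.13 to -0.59 with 1 cell left out at a time. The summed level of the list averaged 255 FPKM in Etv2-high cells and 249 FPKM in Etv2-undetected cells. Among mesenchymal genes Cdh11, a cadherin, stood 1.01 higher and the homeobox gene Prrx2 at -1.24, with Snai1 counted in both lists and a median of 0.31. Trh of the endoderm list lay at -1.03.

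Genes of the G2 and M phases stood higher as a whole, and mostly in cells numbered above 48. All 17 had a positive difference and 7 were at least 1 higher: Ube2c (1.75), Plk1 (1.71), Nusap1 (1.39), Aurkb (1.16), Aurka (1.08), Tpx2 (1.06) and Cdk1 (1.04). These genes serve mitotic entry, spindle assembly and exit. The summed level of the list was 182 to 2295 FPKM (median 1686) in Etv2-high cells and 101 to 2622 FPKM (median 828) in Etv2-undetected cells. The median difference was 0.88 over all cells, 0.15 among cells numbered up to 48 and 1.44 above 48. Plk1 stood 0.23 higher up to 48 and 3.25 above 48. S phase genes had a median of -0.25, and none of 15 was at least 1 apart. After regression of every gene on the G2 and M list, 6 genes were higher and 3 lower by the size rule defined above, and 6 of the 8 higher and 2 of the 4 lower genes were among them.

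BMP response genes had positive differences in all 7 members described, with a median of 0.50 and none at least 1 apart. Id3, an inhibitor of DNA binding that BMP induces, had medians of 804 FPKM in Etv2-high and 747 FPKM in Etv2-undetected cells. The summed level of the list had medians of 1143 and 1141 FPKM, and was 11.6 FPKM in the Etv2-undetected cell C89. Leaving out 1 cell at a time took the differences of Id3, Id1 and Id2 as low as 0.10, 0.08 and 0.06. Without the cells under 5177 detected genes the list's median difference was 0.22. The median differences were 0.16 for WNT response genes, with the antagonist Dkk1 1.07 higher, -0.09 for NOTCH genes and -0.11 for FGF response genes. The apelin and VEGF ligands had a median of -0.16 and none of 6 at least 1 apart. Contractile genes had a median of 0.20, with Actc1, the cardiac actin, seen in 4 of 19 Etv2-high and 1 of 22 Etv2-undetected cells (1.09 higher). Housekeeping genes had a median of 0.02, with 1 of 12, the mitochondrial enzyme gene Sdha, at -1.67.

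**Figure D4:**
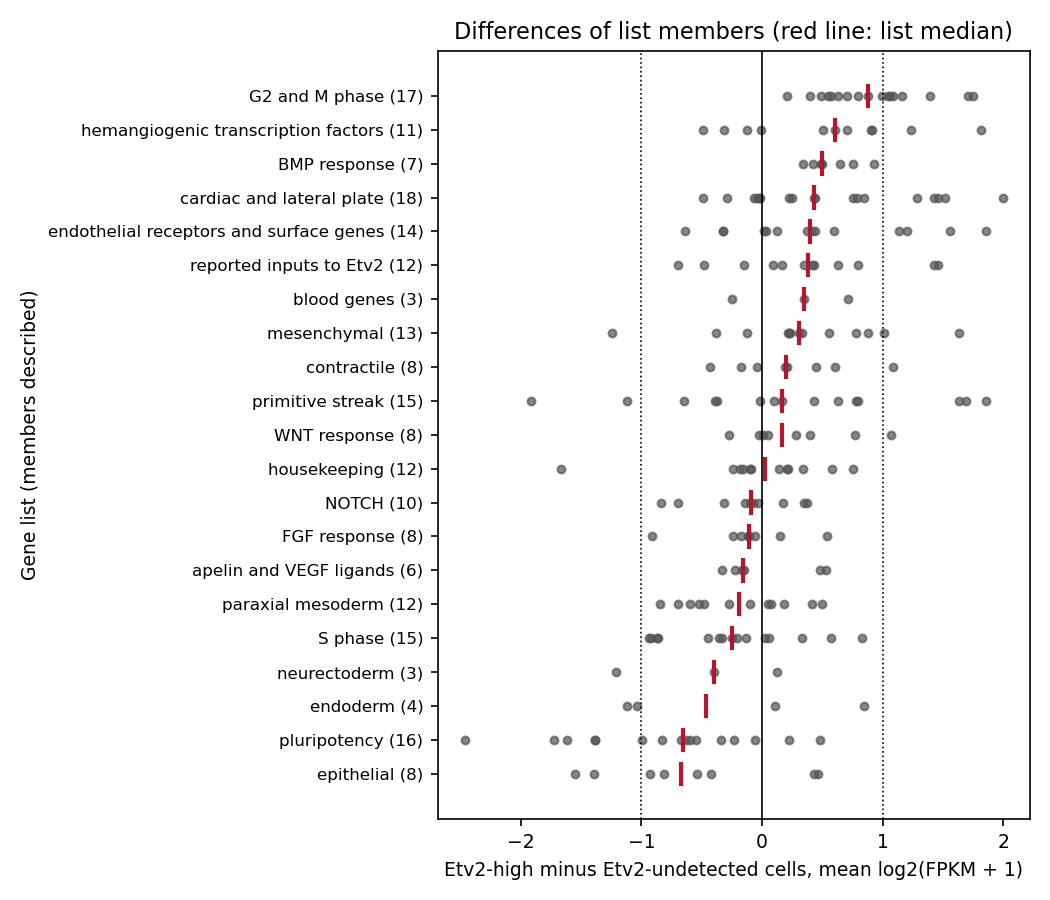
Difference in mean log2(FPKM + 1), Etv2-high minus Etv2-undetected cells, of each described member of 21 gene lists (grey points), with the list median in red, the number of members in brackets and dotted lines at 1 in each direction. G2 and M phase genes (median 0.88) and hemangiogenic transcription factors (0.60) lie highest, and pluripotency (-0.65) and epithelial genes (-0.68) lowest.

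Among the genes named above, Lmo2, Kdr, Elk3, Fli1, Rhoj, Evx1, Tbx3, Pmp22, Klhl6 and Myc had positive differences both in cells numbered up to 48 and in cells numbered above 48. Hhex, Mef2c, Egfl7, Aplnr, Runx1, Mesp1, T, Krt8, Utf1 and Dppa5a had differences of opposite sign in these parts. A shared sign was a condition for naming genes past the size rule, though every such gene met it. The genes were listed here with their values known, and the parts together make up the cells compared. The shared signs are therefore a description and no independent check.

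**Figure D5:**
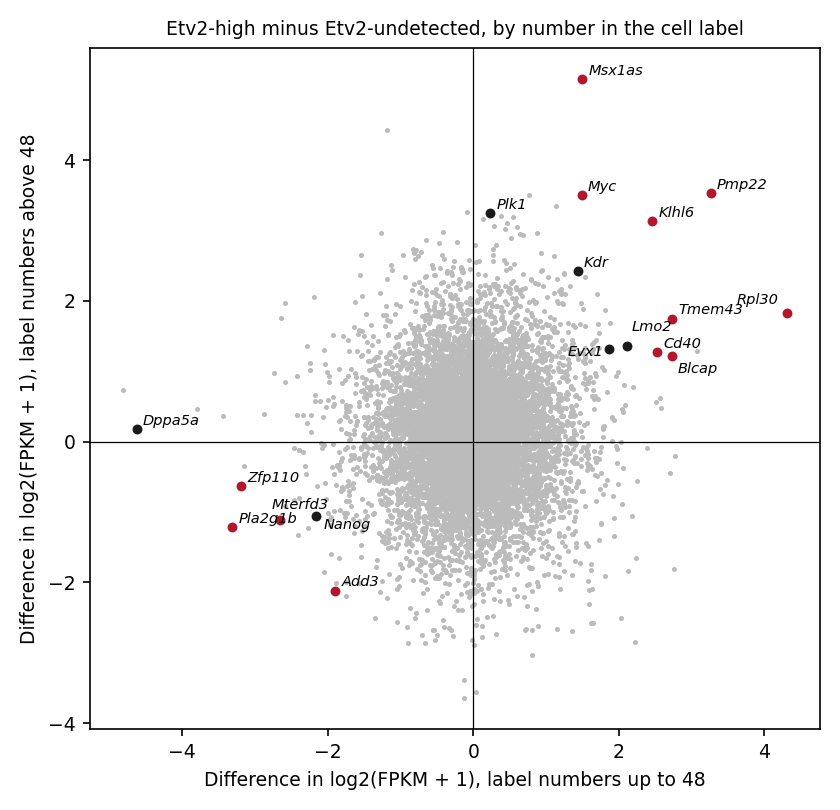
Difference in mean log2(FPKM + 1), Etv2-high minus Etv2-undetected cells, of each of 10569 genes among cells numbered up to 48 (horizontal, 12 Etv2-high and 12 Etv2-undetected cells) and above 48 (vertical, 7 and 10 cells). Genes past the size rule are red and other named genes black. Pmp22 (3.26 and 3.53) and Klhl6 (2.46 and 3.14) lie high on both axes, Dppa5a (-4.63 and 0.18) low on the first alone and Plk1 (0.23 and 3.25) high on the second alone.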

How the data were processed

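The data are 1 table of 23746 rows and 48 single-cell columns. The deposited values were taken as FPKM although no unit is written in the table, because the submitters' processing notes list Cufflinks 2.2.1.0 (beside CASAVA 1.8.2, TopHat 0.7 and build mm10, without their roles). Which annotation, filters and scaling the authors used is not given in the sources used here. FPKM divides by transcript length, so 775 short RNA symbols were left out. Rows were summed to 23284 symbols, 240 of them on several rows, and each column was matched to its cell by its title.

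Cells were put on a side by Etv2 alone (10 FPKM or more, or below 1 FPKM). Levels were compared as mean log2(FPKM + 1), with a pseudocount of 1 FPKM. A fold change read from this scale is understated for low genes. Detection meant 1 FPKM, and 10569 genes detected in at least 5 of the 48 cells were described, which leaves 11939 aside. A gene was past the size rule at a difference of at least 2 with at least 30 percentage points between the shares of cells. A wider rule, a difference of at least 1 with no condition on shares, was added after the values had been seen. Genes set to be named were the 12 largest past the size rule in each direction with 1 sign in cells numbered up to 48 and above, list members past it, up to 4 members per list with the largest mean, and the 10 highest rank correlations with Etv2. Some of the list members with the largest means, such as Gata6, Vim and Fn1, are not given in the text. Other genes that are given, such as Kdr, Tal1, Fli1, Elk3, Rhoj, Runx1, Tbx3, Evx1, Nanog, Pou5f1 and Plk1, and the single cells singled out, were chosen after their values were seen.

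Shares carry exact Clopper-Pearson 95% intervals and counts of 0 the limit of 3 counts, for counting error only. Relative depth came from 1128 pairs of cells, using genes under 2 FPKM, with residuals of 0.015 (median) and 0.04 (90th percentile) in log2. No doublet caller was run, for lack of counts and of cells. The sides, the 21 lists (277 genes, all found, 3 under older symbols) and the rules were chosen with earlier results of these data known. Coordinates of genes are from GENCODE vM21 (GRCm38), which named 9562 of the genes described, and promoters from RefSeq. Alternatives changed the detection level, pseudocount, filter, scaling, cells, bounds on Etv2 and covariates, and left out each cell in turn. The procedure was tested on simulated data. Python 3.11.15, numpy 2.4.6, pandas 2.3.3, scipy 1.17.1 and matplotlib 3.10.9 were used.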

Additional observations from a re-analysis of the deposited data

How the results depend on the processing

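Counts of genes moved with the setting. The size rule gave 8 genes higher and 4 lower in Etv2-high cells, and the wider rule 359 and 247. With a pseudocount of 0.1 FPKM these were 114, 39, 1359 and 825. Among cells numbered up to 48 they were 25, 34, 508 and 601, and above 48, with 7 and 10 cells, 151, 67, 1181 and 784. With Etv2 at 50 FPKM or more (7 cells) against Etv2 listed at 0 (21 cells) they were 61, 15, 930 and 495. Scaling each cell to 1000000 without short RNAs gave 23 and 6 by the size rule and 686 and 331 by the wider one, and moved the median of all genes to 0.10. Without the 7 cells under 5177 detected genes (1 Etv2-high, 5 Etv2-undetected), 8 genes were lower by the size rule and 418 by the wider one. List medians then moved nearer 0 for blood genes (0.35 to 0.05), reported inputs to Etv2 (0.38 to 0.13), BMP response (0.50 to 0.22), G2 and M phase (0.88 to 0.64) and epithelial genes (-0.68 to -0.43). They moved further from 0 for hemangiogenic transcription factors (0.60 to 0.70) and pluripotency (-0.65 to -0.96). Etv2 at 1 FPKM or more against below 1 FPKM gave 5 genes higher, and regression on the label number, added after the data had been seen, 5 by the size rule and 206 by the wider one. Leaving out each of the 41 cells in turn gave 7 to 11 genes higher and 2 to 5 lower, and 349 to 419 and 224 to 302 by the wider rule.

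Pmp22 (2.52 to 4.72) and Klhl6 (2.27 to 4.21) were past the size rule in all 14 other settings, Rpl30 in 13, Msx1as, Tmem43, Pla2g1b and Mterfd3 in 12, Myc and Zfp110 in 11, Blcap in 8, Cd40 in 7 and Add3 in 6. With each of the 41 cells left out in turn, Mterfd3 was past it 12 times, Add3 22, Zfp110 35, Cd40 37 and Blcap 39. Pmp22, Rpl30, Msx1as, Klhl6, Myc, Tmem43 and Pla2g1b were past it all 41 times. Among cells numbered up to 48, 15 of 111 genes followed took the other sign, and above 48, 14 of 101, of which Dppa5a (0.18) alone was at least 1 apart over all cells. Utf1, which was not followed in every setting, was at 0.39 above 48. The sign also changed after regression on the G2 and M phase score for Aurka (-0.27) and Tpx2 (-0.008204), which are members of that score. The cause of the other changes was not tested.

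No paired analysis was possible because the cells of both sides come from 1 labelled group and share no replicate numbers. The chief limits are that the sides are cells of 1 sample, that a transcript can be lost in a single cell, and that 19 and 22 cells leave wide intervals.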

Other observations

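Genes outside the lists also stood higher or lower in Etv2-high cells without passing the size rule, and those given here were picked after their values were seen. Gadd45g, a stress and differentiation gene, had a median of 14.3 FPKM in Etv2-high and 0 FPKM in Etv2-undetected cells (10 of 19 against 5 of 22; 2.40 higher, by 3.07 among cells numbered up to 48 and 1.29 above). Gata3, a zinc finger factor, was seen in 13 of 19 and 6 of 22 (1.75 higher, by 1.87 and 1.68), and an exon of it overlaps 9230102O04Rik on the same strand. Unc5b, a netrin receptor gene also known from endothelium, was seen in 13 of 19 and 4 of 22 (1.65 higher, by 1.48 and 1.97). Rps27, a ribosomal protein gene with copies elsewhere in the genome, had a difference of -2.69, with -4.81 among cells numbered up to 48 and 0.73 above.

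The 7 cells between the bounds, which belong to neither side, had Etv2 at 1.55 to 7.40 FPKM. Kdr had a median of 0.81 and a highest value of 13.6 FPKM in them, and Mesp1 a median of 34.4 FPKM. Gata2 was listed at 0 in all 7.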
